A study of Mus musculus with 2 samples.

Results

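ILC2-like kidney cells that carried *Il5* or *Il13* transcripts numbered 349, out of 1462 cells that passed an ILC2 gate and 21661 cells kept in all. They were chosen by measured counts of unique molecular identifiers (UMIs, each standing for 1 captured transcript). A cell passed the gate with at least 200 genes, at most 20% mitochondrial UMIs, a UMI in at least 2 of the 4 genes *Il1rl1*, *Gata3*, *Il17rb* and *Il2ra*, and no UMI of the 7 genes *Cd3d*, *Cd3e*, *Cd3g*, *Trac*, *Foxp3*, *Mcpt8* and *Cpa3*. Cytokine-positive cells had at least 1 UMI of *Il5* or *Il13*. The other 1113 gated cells, with 0 UMIs of both genes, are called cytokine-negative. The young library held 297 positive cells of 1156 in the gate and 11429 kept, and the old library 52 positive cells of 306 in the gate and 10232 kept. Since these genes selected the cells, their own levels are given below as a description.

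Innate lymphoid cells of the second group (ILC2s) are tissue-resident lymphocytes without rearranged antigen receptors. Alarmins from epithelium and stroma, such as IL-33, which is read by the receptor that *Il1rl1* encodes, and IL-25, which is read through *Il17rb*, drive them to make IL-5 and IL-13 under the transcription factor GATA3. IL-5 sustains eosinophils, IL-13 acts on epithelium and macrophages, and in the mouse kidney ILC2s are a resident population studied for tissue repair and for the control of inflammation.

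Each library came from the pooled kidneys of MRL-*lpr* mice, 1 library from young and 1 from old animals, so ages were compared with no test and cells were not treated as replicates. MRL-*lpr* mice carry the *lpr* allele of *Fas* and develop lupus-like autoimmunity with nephritis as they grow older. Severe disease defined the study's old group, and its young group was the baseline, with at most mild disease. Leukocytes were enriched on a density gradient and then with an ILC enrichment kit, and live cells were sorted, so shares refer to enriched suspensions and not to the kidney. The labels give the ages only as young and old, while the study's methods give age ranges in weeks for both groups.

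The methods describe female mice, yet both libraries held cells with UMIs of genes on the Y chromosome (*Uty*, *Kdm5d*, *Eif2s3y* or *Ddx3y*). Among young positive cells, 159 of 297 (53.5%) had Y-linked UMIs without *Xist* and 80 (26.9%) had *Xist* UMIs without Y-linked ones. Among old positive cells the counts were 32 of 52 (61.5%) and 10 (19.2%). Shares and leading genes are therefore also given within Y-linked-only and *Xist*-only cells. The libraries shared 26 kept barcodes, of which 0 were in the gate. Scrublet, a caller of doublets, marked 20 young and 5 old positive cells, which were kept and left out as an alternative.

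Positive cells carried ILC2 marker genes that the rule did not use. Of 15 ILC2 marker genes, 6 were used by the rule, and the other 9, *Hs3st1*, *Rora* and *Il7r* among them, passed the filter on low counts in the young library, where 9 of 9 had a ratio above 0 over negative cells. Of these, 8 passed in the old library and 8 of 8 did. Intervals lay above 0 for 7 young and 4 old ones, against 9.76% and 10.7% of all genes compared. Negative cells passed the same gate, so these ratios compare gated cells with each other and do not show lineage. Those 9 genes summed to 6645 CPM (a gene's part of all UMIs, in ppm) in young positive and 5277 in depth-matched negative cells, and to 8125 and 7257 in the old library. Defining genes of natural killer cells and ILC1 were at or near 0 in the positive cells. The 8 genes of that list summed to 19.1 CPM in young and 12.9 CPM in old positive cells, with *Gzma*, *Eomes* and *Tbx21* at 0 in both. Basophil and mast cell markers, 8 genes, summed to 2.96 CPM in young positive cells, with *Fcer1a* the most abundant, and to 0 in old ones. The gate had removed cells with *Mcpt8* or *Cpa3* UMIs, so these low sums were set in part by the rule. Other lists were not near 0. Proximal tubule markers summed to 13317 CPM in young and 10822 CPM in old positive cells. Alpha-beta T cell markers summed to 177 and 178 CPM there, and gamma-delta T cell markers to 169 and 147 CPM.

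About 1 gated cell in 4 carried a cytokine transcript in the young library, and fewer did in the old one. The share was 25.7% (95% interval 23.2 to 28.3) in young and 17.0% (13.0 to 21.7) in old mice, at gate medians of 5239.5 and 5634.5 UMIs. Intervals here and below are exact and cover counting error only, not differences between mice. Thinned to 2000 UMIs a cell, which left out 60 young and 11 old cells, the shares were 14.7% (12.6 to 16.9) and 8.14% (5.28 to 11.9). Thinned to 1000 UMIs, with 17 and 5 cells left out, they were 7.20% (5.77 to 8.86) and 6.31% (3.84 to 9.68), so the difference between ages lay within counting error at that depth. Shares were far lower in cells that should lack these genes. Among tubule cells, 8 of 5880 young (0.136%) and 1 of 3266 old (0.0306%) had a UMI of *Il5* or *Il13*, at medians of 15799 and 16068.5 UMIs. Thinned to 2000 UMIs, 1 of 5777 and 1 of 3252 did, and at 1000 UMIs 1 of 5867 and 0 of 3265. Among B cells, 0 of 405 young and 0 of 230 old cells did, with exact upper bounds of 0.907% and 1.59%, at medians of 3943 and 7408.5 UMIs. Left out beforehand were tubule cells with a *Ptprc* UMI and B cells with a UMI of a gate or excluded gene. These low shares are therefore not independent of how the cells were chosen.

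The share with *Il5*, the eosinophil growth factor, was lower in the old library as counted, while the *Il13* intervals of the ages overlapped. *Il5* was in 14.8% of young (12.8 to 17.0) and 7.19% of old gated cells (4.56 to 10.7), and in 6.57% and 2.37% after thinning. *Il13* was in 14.7% (12.7 to 16.9) and 11.8% (8.38 to 15.9), and in 9.12% and 6.78% after thinning. Thinned to 1000 UMIs, *Il5* was in 3.34% of young (2.37 to 4.55) and 2.33% of old cells (0.940 to 4.73), and *Il13* in 4.04% and 4.32%, so at that depth the *Il5* intervals overlapped and *Il13* was no longer lower in old cells. As counted, the *Il13* share of old cells differed with the sex-linked split. In Y-linked-only cells *Il13* was in 16.4% of young (13.6 to 19.6) and 17.2% of old cells (11.8 to 23.7), nearly equal. In *Xist*-only cells it was in 14.1% of young (10.0 to 19.1) and 1 of 74 old cells, or 1.35% (0.0342 to 7.30). Thinned, these shares were 9.46% and 5.45% in Y-linked-only cells, with 16 and 4 left out, and 10.6% and 1.35% in *Xist*-only cells, with 13 and 0 left out. The old intervals then overlapped, 2.52 to 10.1 against 0.0342 to 7.30. At 1000 UMIs the Y-linked-only shares of *Il13* were again close, 5.62% and 5.99%, with 3 and 2 cells left out, and the *Xist*-only shares were 5.28% and 1.35%. *Il5* was in a larger share of *Xist*-only cells at both ages, with intervals apart only in young cells as counted. Young values were 22.98% in *Xist*-only against 14.1% in Y-linked-only cells, and old values 13.5% against 4.73%. After thinning they were 9.36% against 6.76% in young, and 6.76% against 1.21% in old cells, and at 1000 UMIs nearly level, at 4.47% against 3.80% and 2.70% against 2.40%. Either gene was found in 26.2% of young Y-linked-only cells (22.7 to 29.8) and 32.3% of *Xist*-only cells (26.5 to 38.5), and in 18.9% (13.3 to 25.7) and 13.5% (6.68 to 23.5) of the old ones.

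**Figure D1:**
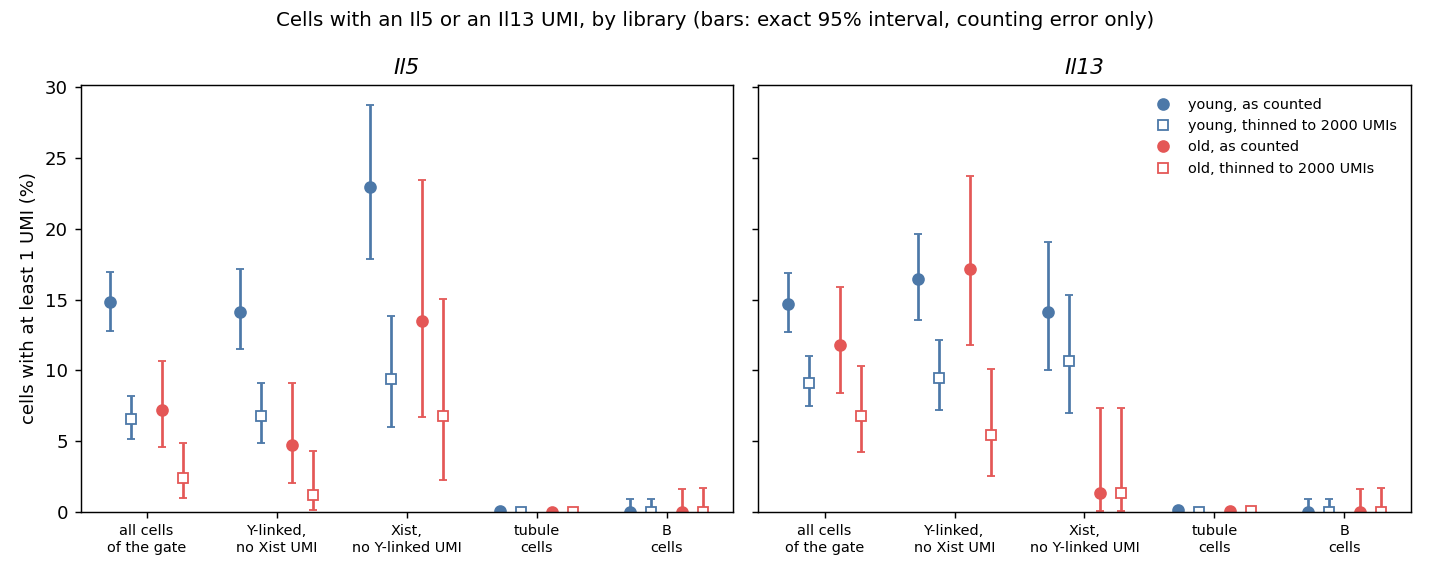
Share of cells (%) with at least 1 UMI of *Il5* (left) or *Il13* (right) in gated cells, in their Y-linked-only and *Xist*-only cells, and in tubule and B cells, by library, as counted (filled) and thinned to 2000 UMIs (open); bars are exact 95% intervals. *Il13* was in 17.2% of old Y-linked-only cells and 1.35% of old *Xist*-only cells, while tubule and B cells stayed near 0.

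The gate bounded the cells as follows. The positive share was larger the more gate genes were detected, and so was depth. With 2, 3 and 4 gate genes it was 15.6%, 24.1% and 35.3% in the young library, at medians of 4277.5, 5099 and 5998 UMIs. In the old library it was 9.86%, 15.9% and 23.7%, at medians of 5000, 5639 and 5998 UMIs. Just outside the gate, cells with 1 gate gene and no excluded gene were positive in 7 of 790 young (0.886%) and 1 of 386 old cells (0.259%), at far higher medians of 13801.5 and 15069.5 UMIs. A cytokine UMI was in 506 young and 80 old kept cells, and the gate took in 58.7% and 65.0% of them. Of those outside it, 181 young and 19 old cells had enough gate genes but also a UMI of an excluded gene.

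*Il5* and *Il13* were detected mostly in different cells, yet together more often than the product of their shares. In the young library 127 cells had *Il5* alone, 126 had *Il13* alone and 44 had both, where the product of the shares gives 25.1. In the old library the counts were 16, 30 and 6, where the product gives 2.59. Thinned to 2000 UMIs, both genes were in 11 young cells, where the product gives 6.57, and in 3 old cells, where it gives 0.475. Cells with both genes were also deeper, with medians of 7166.5 UMIs against 6265 and 5702.5 for *Il5* alone and *Il13* alone in the young library. *Il13* alone was the larger class in old cells, 57.7% of positives against 30.8% for *Il5* alone, while the young classes were nearly equal at 42.4% and 42.8%.

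A few cells carried many of the cytokine UMIs. Exactly 1 UMI was all that 162 young (54.5%) and 26 old positive cells (50%) carried, so these cells sit just inside the rule. The highest cells had 30 and 28 UMIs, and the 10 highest cells held 22.6% of the 829 young and 64.2% of the 165 old cytokine UMIs. Within positive cells *Il5* stood at 109 CPM (95.9 to 123) in young and 111 CPM (80.2 to 149) in old mice. *Il13* stood at 242 CPM (223 to 263) and 315 CPM (261 to 376), and 1 cell held 21.3% of the old *Il13* UMIs.

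For the comparison of positive with negative cells, each positive cell was paired with the negative cell of nearest UMI total in its library. The pairs had medians of 6056 and 6050 UMIs in the young library and 5877.5 and 5849 in the old one. Levels are CPM of UMIs summed over the cells of a side, and ratios are log2 of positive over negative. A gene was compared with at least 100 UMIs over both sides and a UMI in at least 5% of cells, and called at 2-fold or more. Few genes reached 2-fold. In the young library 14 of 5923 genes were higher (0.236%) and 64 lower (1.08%), and in the old library 12 of 1126 were higher (1.07%) and 16 lower (1.42%). The median ratio was 0.01 in young and -0.04 in old cells. Intervals lay above 0 for 9.76% of young and 10.7% of old genes and below 0 for 9.98% and 13.3%, and counts in the lists below are to be read against these shares. The 1121 genes compared in both libraries held 0 of the 14 young-higher genes, so an overlap of higher genes could not be seen. Of them 11 were called lower in each library and 6 in both, *Nkg7* and *Ccl5* among them. In old cells the negative side alone carried *Nkg7* and *Ccl5* over the filter, so their shared calls are given as description. Intervals lay on the same side of 0 in both libraries for 81 of the 1121 and on opposite sides for 71, so the libraries differed nearly as often as they went together. The opposite genes included 10 mitochondrial genes and the nuclear RNA *Malat1* (-0.22 in young, 0.51 in old). A larger group, 18 ribosomal protein genes, went the other way, above 0 in young and below 0 in old cells. Shares of these RNAs can vary with cell quality, whose part in the ratios was not tested. The 45 genes above 0 in both included the sugar-metabolism gene *Ldha* (0.21 in young, 0.41 in old) and the proprotein convertase *Furin* (0.53 and 0.61). The transcriptional repressor *Hes1* (0.43 and 0.88) and the cell-surface gene *Ly6a* (0.45 and 0.57) were others. Genes also found in tubule cells were among the 45 too, such as *Kap* (0.72 and 1.87) and *Cndp2* (0.91 and 1.54).

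Among secreted factors, *Calca* was higher in positive cells of both libraries. *Calca* encodes calcitonin and the neuropeptide CGRP and lies at chr7:114631478-114636357 (ENSMUSG00000030669, GRCm38). It stood at 551 CPM (522 to 582) in young positive and 293 CPM (272 to 316) in matched negative cells, a ratio of 0.91 (0.78 to 1.05). In old cells it stood at 988 CPM (891 to 1092) and 262 CPM (213 to 318), a ratio of 1.92 (1.60 to 2.25). More cells carried it, too: 59.9% against 43.8% in the young and 65.4% against 40.4% in the old library, or 40.5% against 28.9% and 53.8% against 25.0% after thinning, which left out 3 young positive and 3 young negative cells and 0 and 0 old ones. Tubule cells, deeper by far, had *Calca* UMIs in 1.11% of young and 0.245% of old cells. Single cells weighed on the levels, with 1 cell holding 16.1% of young and 25.3% of old positive *Calca* UMIs. The young ratio was 0.54 in *Xist*-only cells, and the old ratio was 1.16 in Y-linked-only and 3.53 in *Xist*-only cells. The old ratio lost the 2-fold mark, at 0.61, when gated cells with UMIs of other lineages were removed, and was 1.01 in a comparison of all positive with all negative cells thinned to 2000 UMIs. That comparison, called thinned ratio below, changes depth and pairing at once.

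Other ligands were read mostly from the young library, where more of them passed the filter. Of 21 type 2 and growth factor cytokines, 12 passed the filter in young cells with 0 called and a median ratio of 0.19, against 0.01 over all genes, and 5 of the 12 had intervals above 0 (9.76% over all genes) and 1 below. Among old cells 5 passed, 1 was called higher (*Calca*) and the median was 0.05, against -0.04 over all genes. *Areg*, which encodes the repair factor amphiregulin (ENSMUSG00000029378, chr5:91139599-91148432), stood at 1315 CPM (1269 to 1362) in young positive and 826 CPM (789 to 863) in negative cells, a ratio of 0.67 (0.59 to 0.75). In old cells it stood at 1965 CPM (1828 to 2109) and 1894 CPM (1759 to 2036), a ratio of 0.05 (-0.10 to 0.20). Thus *Areg* was higher in young positive cells and near equal in the old pairs, although 90.4% of old positive and 69.2% of old negative cells carried it, or 73.1% and 59.6% after thinning. The young *Areg* ratio was 0.97 in Y-linked-only cells and turned to -0.22 in *Xist*-only cells. The old ratio depended on the cells taken. It was 0.44 against all negative cells, 0.59 as a thinned ratio, 0.47 without other-lineage cells and 0.78 in *Xist*-only cells, but -0.24 for positive cells with at least 2 cytokine UMIs.

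*Il2*, a growth factor for lymphocytes, stood at 70.3 CPM (60.0 to 81.8) in young positive and 39.8 CPM in negative cells, a ratio of 0.82 (0.45 to 1.20), and its ratios in Y-linked-only and *Xist*-only cells were 1.10 and 1.13. In old cells *Il2* had 4 UMIs on each side, too few to tell. *Lif*, of the IL-6 family, had a young ratio of 0.69 (0.27 to 1.11) that was 0.39 against all negative cells and turned to -0.27 as a thinned ratio. *Csf2*, which encodes GM-CSF, barely differed in young cells (0.05) and stood at 222 CPM in old positive and 158 CPM in old negative cells, with an interval reaching 0. That old ratio, 0.49, turned to -0.21 without other-lineage cells, -0.74 in Y-linked-only and -0.37 in *Xist*-only cells. It was 1.51 for positive cells with at least 2 cytokine UMIs. *Il4*, the neighbour of *Il13* on chromosome 11, stood at 13.1 CPM in young positive and 8.56 CPM in negative cells (0.62, -0.24 to 1.51), and at 20.6 and 10.4 CPM in old ones (0.99, -0.91 to 3.18), so no difference was detectable at this depth. *Il17a*, the type 3 cytokine, had 58 UMIs in 7 young positive cells, 58.6% of them in 1 cell, and 0 in old ones, where 3 counts would be 7.74 CPM.

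Of 9 chemokines, 5 passed the filter in young cells, with *Ccl1* called higher, *Ccl5* called lower and a median of 0.32. *Ccl1*, a ligand of CCR8, stood at 45.3 CPM in young positive and 21.4 CPM in negative cells, a ratio of 1.08 (0.59 to 1.60) that dropped to 0.56 against all negative cells and to 0.11 in *Xist*-only cells. *Cxcl2*, which attracts neutrophils, had a young ratio of 0.32 (0.24 to 0.41) at 1051 against 841 CPM. In old cells 3 chemokines passed, with a median of -3.79, and *Ccl4* and *Ccl5*, typical of cytotoxic lymphocytes, were called lower (-3.79 and -5.08). Negative cells held most UMIs of both, *Ccl5* with 16 against 537, so these calls are given as description. Neither call held without other-lineage cells (-0.01 and 0.57) or in Y-linked-only cells (0.25 and 0.50). *Ptgs2*, which encodes the prostaglandin-making enzyme COX-2 (ENSMUSG00000032487, chr1:150100031-150108227), stood at 80.0 CPM (69.0 to 92.3) and 30.8 CPM (24.1 to 38.8) in young positive and negative cells, a ratio of 1.38 (0.98 to 1.79). It was in 15.5% and 5.39% of these cells, and in 7.82% and 2.72% after thinning. The *Ptgs2* ratio was 1.71 in Y-linked-only cells, turned to -0.38 in *Xist*-only cells and lost the 2-fold mark, at 0.62, as a thinned ratio. In old positive cells *Ptgs2* had 23 UMIs, 87.0% of them in 1 cell.

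The costimulatory receptor *Icos* was higher in positive cells of both libraries. Of 15 costimulation and checkpoint receptors, 6 passed in young and 4 in old cells, 0 were called, and 6 of 6 and 4 of 4 had ratios above 0, 2 in each library with intervals above 0 (9.76% and 10.7% over all genes), with medians of 0.24 and 0.24. *Icos*, a costimulatory receptor that sustains ILC2s (ENSMUSG00000026009, chr1:60977927-61000320), stood at 631 CPM (599 to 663) in young positive and 389.9 CPM (365 to 416) in negative cells, a ratio of 0.69 (0.57 to 0.81). In old cells it stood at 756 CPM (671 to 847) and 598 CPM (524 to 681), a ratio of 0.34 (0.08 to 0.59). *Icos* was in 87.9% of young positive and 75.8% of negative cells, and in 82.7% and 69.2% of old ones, so the share moved the same way at both ages. After thinning these shares were 62.6% and 53.1% in young, and 71.2% and 51.9% in old cells. The *Icos* ratio was 0.67 in young Y-linked-only and 0.41 in young *Xist*-only cells, and 0.18 and 1.04 in the old ones. *Klrg1*, an inhibitory receptor of mature ILC2s, had a young ratio of 0.75 (0.43 to 1.08), which was 0.39 against all negative cells and 0.13 as a thinned ratio, and an old ratio of 0.15.

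Of 13 lipid, neuropeptide and adrenergic receptors, 6 passed in young cells with a median of 0.04 and 3 ratios above 0, and *Ramp3* was called higher. *Ramp3* encodes a receptor activity-modifying protein for calcitonin-family peptides. It stood at 59.7 CPM (50.3 to 70.4) in young positive and 29.5 CPM in negative cells, a ratio of 1.02 (0.59 to 1.45), and at 113 and 28.5 CPM in old ones from 44 and 11 UMIs, a ratio of 1.99 with a lower bound of 1.02. The old counts were under the filter, and 20 of the 44 UMIs sat in the 7 cells with the most cytokine UMIs. The young *Ramp3* ratio was 1.41 in Y-linked-only and 0.38 in *Xist*-only cells, and under 2-fold as a thinned ratio (0.58) and against all negative cells (0.68). *Ramp1*, which forms the CGRP receptor with the product of *Calcrl*, went the other way in young cells, at 181 CPM in positive and 227 CPM in negative cells (-0.32, -0.51 to -0.14), and was at 188 and 153 CPM in old ones (0.30, -0.21 to 0.82). In old cells 3 of the 13 passed, with 0 called and a median of 0.30.

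Cytokine receptors went both ways. Of 17, 13 passed in young cells with a median of 0.16, of which 4 had intervals above 0 and 3 below it, and 2 were called lower. In old cells 3 passed, with 0 called and a median of 0.27. *Il7r*, the receptor chain for IL-7, stood at 611 and 515 CPM in young positive and negative cells (0.25, 0.14 to 0.36) and at 933 and 754 CPM in old ones (0.31, 0.08 to 0.54). *Il10ra*, a chain of the IL-10 receptor, stood at 44.0 and 28.2 CPM in young (0.64, 0.18 to 1.11) and at 113 and 64.8 CPM in old cells (0.81, 0.07 to 1.58). The old *Il10ra* counts were under the filter of 100 UMIs, and the old *Il7r* ratio was -0.00 without other-lineage cells and -0.02 in *Xist*-only cells. The young *Il7r* ratio was 0.08 against all negative cells. *Il2rb* and *Il18r1*, receptor chains that natural killer cells also carry, were called lower in young cells, at -1.57 and -1.30. With other-lineage cells removed these ratios were 1.15 and -0.31. *Il1rl1*, which served the gate, stood at 364 CPM on both sides in the young library and at 601 and 565 CPM in the old one. *Gata3*, another gate gene, stood at 897 CPM (859 to 936) against 684 CPM (650.4 to 718) in young and 1263 CPM (1154 to 1380) against 959 CPM (863 to 1061) in old cells.

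Activation factors had medians above 0 in both libraries, and NF-kB genes in the young one, with 0 called. Of 18 activation factors, 10 passed in young cells with a median of 0.30 and 0 called, and 6 in old cells with a median of 0.22 and 0 called. Of 11 NF-kB target and feedback genes, 10 passed in young cells with a median of 0.24, and 5 in old cells with a median of -0.04, the same as over all genes, with 0 called in either. *Nfkb1*, a subunit of NF-kB, stood at 915 and 743 CPM in young (0.30, 0.21 to 0.39) and at 1078 and 829 CPM in old cells (0.38, 0.17 to 0.59). *Nfkbia*, which encodes an inhibitor of the pathway, was higher as well, at 0.29 (0.23 to 0.34) in young and 0.24 (0.10 to 0.37) in old cells. *Nr4a1*, an early gene of receptor signalling, stood at 449 and 287 CPM in young cells (0.65, 0.51 to 0.79), and was the same or larger in Y-linked-only (0.67) and *Xist*-only cells (0.76). In old cells its ratio was -0.14 (-0.48 to 0.20), but 0.62 in Y-linked-only and 1.04 in *Xist*-only cells. Of 15 lineage factors, 12 passed in young and 5 in old cells, 0 were called, and medians were 0.07 and 0.12. *Id2*, needed by all ILC lineages, had ratios of 0.17 and 0.26, and *Rora*, needed for ILC2 development, 0.18 and 0.05. The young and old *Id2* ratios turned to -0.13 and -0.89 in *Xist*-only cells, and were 0.45 and 0.15 in Y-linked-only cells.

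Genes of feedback and stress had medians near 0, and several early genes were slightly lower in positive cells. Of 9 STAT5 target and feedback genes, 7 passed in young cells with a median of -0.08 and *Socs3* called lower (-1.65, and -0.43 with other-lineage cells removed), and 3 in old cells with a median of 0.01. Of 20 immediate early and heat shock genes, 20 passed in young cells with a median of -0.07 and *Dusp2* called lower (-1.59, and -0.23 with other-lineage cells removed), and 14 in old cells with a median of -0.03. Of these, 7 young and 4 old genes had intervals below 0, *Jun* at -0.23 and -0.31 among them, and 1 and 2 had intervals above 0. Over all genes 9.98% of young and 13.3% of old intervals lay below 0. Of 21 metabolic genes, 17 passed in young cells with a median of 0.03, and 9 in old cells with a median of 0.02. *Odc1*, an enzyme of polyamine synthesis, was called higher in old cells at 1.22, a ratio that was -0.00 without the cells that Scrublet marked.

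Genes of egress and residency differed in part. Of 27 adhesion, residency and egress genes, 18 passed in young cells with a median of 0.06 and 0 called, and 11 in old cells with a median of -0.12. *Klf2*, a transcription factor that promotes egress from tissue (ENSMUSG00000055148, chr8:72319033-72321656), stood lower in positive cells, at 239 against 332 CPM in young (-0.47, -0.63 to -0.32) and 281 against 639.9 CPM in old cells (-1.19, -1.53 to -0.86). A single negative cell held 32.8% of the old negative *Klf2* UMIs, and the old ratio was -0.12 without the cells that Scrublet marked and -0.07 without other-lineage cells. *Rgs1*, which dampens chemokine receptor signalling, stood higher, at 1383 against 1100 CPM in young (0.33, 0.25 to 0.41) and 1526 against 697 CPM in old cells (1.13, 0.92 to 1.34). Against all negative cells the old *Rgs1* ratio was 0.70, and as a thinned ratio 0.51, and in young *Xist*-only cells the ratio turned to -0.17. *Cxcr6*, a chemokine receptor of resident lymphocytes, had ratios of 0.21 and 0.83, and the integrin gene *Itga4* 0.51 (0.36 to 0.65) and 0.39 (0.04 to 0.74), the latter turning to -1.14 in the 10 *Xist*-only pairs.

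Cell cycle genes that passed the filter were higher in young positive cells. Of 16 in the list, 11 passed, 11 of 11 had intervals above 0, 4 were called and the median was 0.75, with sums of 990.2 CPM in positive and 696 CPM in negative cells. The called genes were *Mcm3*, *Mcm4* and *Mcm5*, of the helicase that licenses DNA replication, and *Tyms*, an enzyme that makes thymidylate. *Mcm5* stood at 54.6 CPM (45.6 to 64.9) and 22.3 CPM in positive and negative cells, a ratio of 1.30 (0.82 to 1.79), and was in 15.8% and 11.8% of them. *Tyms* stood at 43.2 and 18.4 CPM (1.23, 0.70 to 1.78), and kept its 2-fold mark as a thinned ratio (1.14) and in *Xist*-only cells (1.39) but not in Y-linked-only cells (0.89). The thinned ratios of *Mcm3*, *Mcm4* and *Mcm5* were 0.13, 0.18 and 0.50, and in *Xist*-only cells 0.36, -0.10 and 0.12. Of uncalled genes, *Mki67*, *Mcm6* and *Cdkn1a* turned in *Xist*-only cells (-0.93, -0.44 and -0.23), and *Mki67* with at least 2 cytokine UMIs (-0.28). *Ccnb1* and *Cdk1*, under the filter, were lower in positive than in all negative cells. With 0, 1, 2 to 4 and 5 or more cytokine UMIs they stood at 12.1, 4.02, 0 and 0 CPM, and at 21.4, 14.5, 1.61 and 14.1 CPM. In the old library 1 of the 16 passed, and the list summed to 379 CPM in positive and 448 CPM in negative cells. *Sox4*, a transcription factor of the SOX family, stood at 66.1 and 28.2 CPM in young cells (1.23, 0.80 to 1.66), with 1.08 in Y-linked-only and 1.56 in *Xist*-only cells, and at 0.87 with other-lineage cells removed. *Slc29a1*, a nucleoside transporter, stood at 33.0 and 13.7 CPM (1.27, 0.66 to 1.91), with 1.18 and 1.79 in those subsets and 0.90 as a mean of the cells' CPM.

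**Figure D2:**
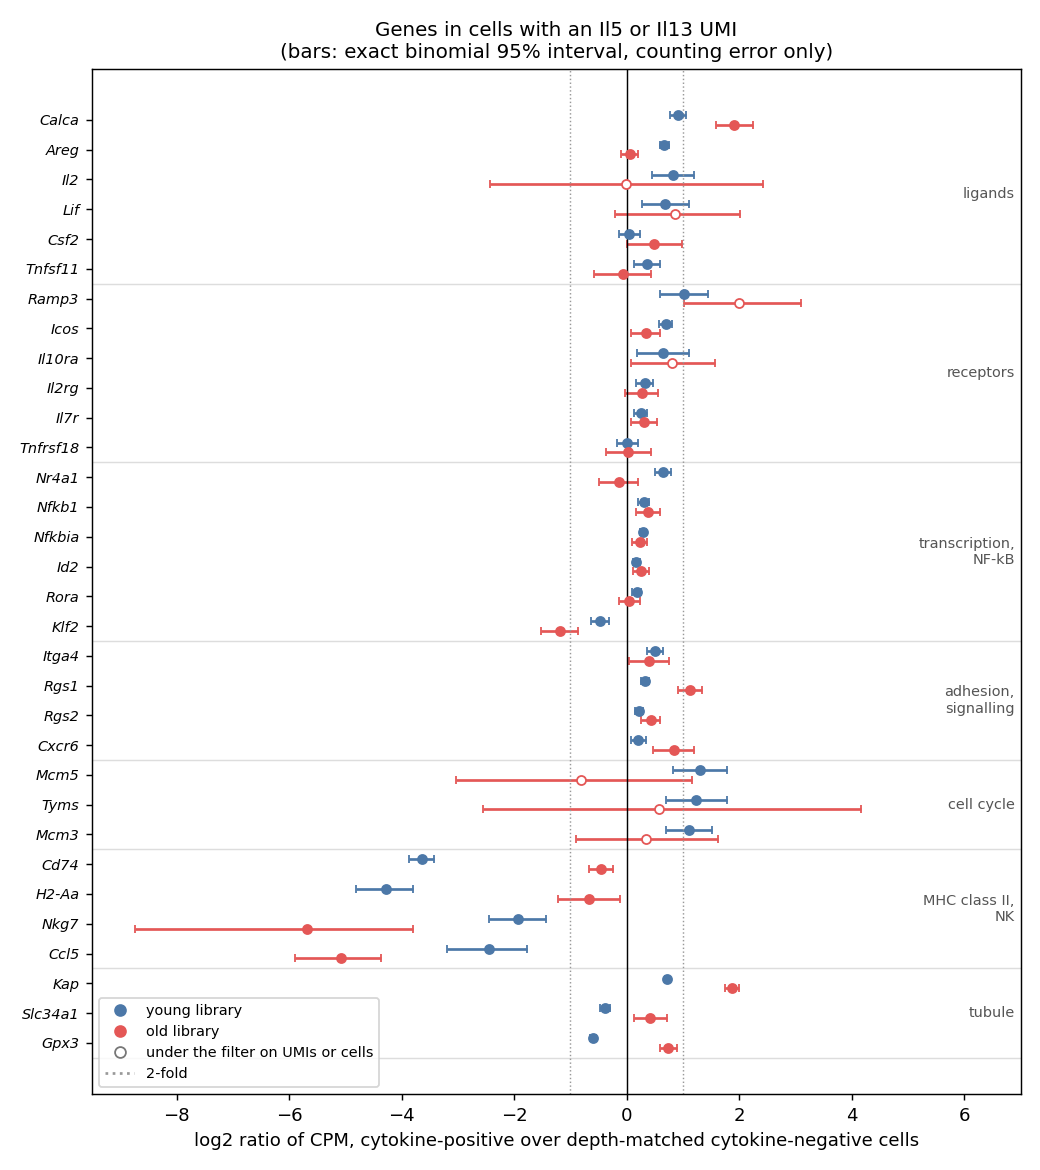
Log2 ratio of CPM in cytokine-positive over depth-matched cytokine-negative cells for genes grouped by role, young (blue) and old (red); points are ratios, open where a gene was under the filter, bars exact 95% intervals and dotted lines 2-fold. *Calca* lies above 0 at both ages (0.91 and 1.92), *Klf2* below it (-0.47 and -1.19), and *Nkg7* and *Ccl5* furthest below it in old cells (-5.68 and -5.08).

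Among the 12 genes that ranked lowest in young positive cells, 4 were of MHC class II antigen presentation, and *Ccl5* and *Nkg7* are typical of cytotoxic lymphocytes. Of 6 MHC class II genes, 4 passed in young cells and 4 were called lower, with a median of -3.96, and 3 passed in old cells with 0 called and a median of -0.66. They summed to 128 CPM in young positive and 1757 CPM in negative cells, and to 1202 and 1712 CPM in old ones. Without *Cd74* the young UMIs were 114 against 1774. Those genes thus passed the filter in young cells mainly through the negative side, and the count of calls is given as description. *H2-Aa*, an alpha chain of MHC class II, stood at 14.8 CPM (10.3 to 20.6) in young positive and 288 CPM (267 to 311) in negative cells, a ratio of -4.28 (-4.82 to -3.79). Few cells set this: *H2-Aa* was in 3.70% of positive and 8.08% of negative cells, and 1 negative cell held 41.5% of the negative UMIs. *Cd74*, the chaperone of class II molecules, stood at 80.0 CPM (69.0 to 92.3) and 997 CPM (957 to 1039), a ratio of -3.64 (-3.86 to -3.42), and *H2-Ab1* and *H2-DMa* had ratios of -4.27 and -2.52. In *Xist*-only cells all 4 turned, to 0.07 for *H2-Aa*, 1.38 for *Cd74*, 1.20 for *H2-Ab1* and 1.98 for *H2-DMa*, but only *Cd74*, with 95 against 36 UMIs, passed the filter there. *H2-Aa* rested on 17 against 16, *H2-Ab1* on 7 against 3 and *H2-DMa* on 4 against 1 UMIs. With gated cells of other lineages removed, *H2-Aa* was at -1.02 and *Cd74* at -0.72.

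Markers of natural killer cells and ILC1 were lower in positive cells at both ages, and the sums of macrophage and neutrophil markers rested largely on single cells. Their part in the class II and cytotoxic ratios was not tested. B cell markers, 4 genes with *Cd79b* the most abundant, summed to 34.3 CPM in young positive and 39.4 CPM in negative cells, and to 10.3 and 13.0 CPM in old ones, with *Cd79a* and *Ms4a1* at 0 in old positive cells. Macrophage markers, 5 genes led by *Csf1r*, summed to 23.7 and 12.8 CPM in young, and to 2.58 and 117 CPM in old cells, with *C1qa*, *C1qb*, *C1qc* and *Adgre1* at 0 in old positive cells. In the young library 5 positive and 7 negative cells carried them, 1 positive cell held 52 of 56 UMIs, and members went opposite ways, *Csf1r* with 2 against 19 and *C1qa* with 20 against 0 UMIs. In old cells 1 negative cell held 43 of 45 UMIs. Neutrophil markers, 3 genes led by *S100a9*, summed to 71.2 and 29.1 CPM in young and 10.3 and 435 CPM in old cells, with *Retnlg* at 0 in positive cells. Only 2 young positive cells carried them, against 11 negative cells, and 1 positive cell held 167 of 168 UMIs, while 1 old negative cell held 166 of 168. The 8 natural killer and ILC1 markers differed most, at 19.1 against 221 CPM in young, where *Nkg7* led, and 12.9 against 1487 CPM in old cells, where *Gzma* led. Here too 1 negative cell held much of the sum, 37.2% of young and 48.6% of old negative UMIs. At least 2 of these 8 markers were in 1 positive and 12 negative young cells, and in 0 positive and 3 negative old cells. *Nkg7*, a granule protein gene, was called lower at -1.93 in young cells and at -5.68 (-8.74 to -3.79) in old ones, from 2 against 102 UMIs. In old cells the negative side alone carried it over the filter, so that call is given as description. With other-lineage cells removed the *Nkg7* ratios were -0.02 and -0.60. They were -0.26 and -2.34 with at least 3 gate genes, and -1.19 and -3.73 in Y-linked-only cells. The chemokine gene *Ccl5* had ratios of -2.44 and -5.08, and 1 negative cell held 77.9% of young and 68.0% of old negative UMIs. In old cells the negative side alone carried *Ccl5* over the filter as well. Both calls were lost without other-lineage cells (-0.02 and 0.57) and with at least 3 gate genes (-0.60 and 0.81). *Plac8*, found in several leukocyte types, had a young ratio of -3.34 that was -0.27 with those cells removed.

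Of the ILC3 markers only *Ncr1*, which natural killer cells also carry, was clearly lower in positive cells, with 1 against 167 UMIs in young and 1 against 32 in old cells. The other 3 together had 65 against 62 and 5 against 5 UMIs. The ILC3 list of 4 genes summed to 28.0 and 98.0 CPM in young and 15.5 and 95.9 CPM in old cells, with *Il23r* at 0 in positive cells. Alpha-beta T cell markers outside the gate's own genes, 7 led by *Lat*, summed to 177 and 166 CPM in young and 178 and 168 CPM in old cells, with *Cd8a* at 0 in positive cells. Gamma-delta T cell markers, 8 led by *Tcrg-C4*, summed to 169 and 142 CPM, and to 147 and 231 CPM. Endothelial markers, 3 led by *Pecam1*, summed to 46.6 and 25.7 CPM, with 47 of 110 young positive UMIs in 1 cell, and to 38.7 and 36.3 CPM. Erythroid markers, 4 led by *Hba-a1*, summed to 40.7 and 37.7 CPM, and to 74.8 and 36.3 CPM. Basophil and mast cell markers summed to 1.71 CPM in young and 25.9 CPM in old negative cells, led there by *Cma1*.

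Kidney tubule transcripts were present on both sides, and several named genes were also found in tubule cells. Proximal tubule markers, 6 genes led by *Kap*, summed to 13317 CPM in young positive and 12204 CPM in negative cells, and to 10822 and 5482 CPM in old ones. The young sum was higher through *Kap*: 5 of the 6 genes had intervals below 0, with a median of -0.46, while in old cells 3 were above and 1 below, with a median of 0.40. *Inmt*, *S100g*, *Acsm3* and *Cndp2*, 4 of the 12 genes that ranked highest in young positive cells, had ratios of 1.36, 1.51, 1.23 and 0.91. In young tubule cells they stood at 563, 56.1, 284 and 1617 CPM, and 1 positive cell held 90.9% of the *S100g* and 35.4% of the *Acsm3* UMIs. *Kap* stood at 8195 and 4985 CPM in young (0.72) and 6078 and 1661 CPM in old cells (1.87), against 49543 and 38385 CPM in tubule cells. Without the cells that Scrublet marked, *Kap* turned to 2-fold lower in young cells and to -0.61 in old ones, and *Inmt*, *Acsm3* and *Cndp2* to -0.32, -1.31 and -0.69, while *S100g* was at 2.97. Low-ranked genes included others of this kind. *Hpd*, *Cyp4a10*, *Rdh16f2*, *Spp1* and *Prlr* had young ratios of -2.40, -2.38, -1.79, -2.15 and -3.51, against 85.5, 77.6, 283, 553 and 68.9 CPM in young tubule cells. Without the cells that Scrublet marked, *Spp1* was at -0.28, while the other 4 were at -2.55, -4.54, -1.93 and -2.63. In Y-linked-only cells the 5 ratios, in the order above, were -0.84, -0.48, -0.39, -1.43 and -1.39. The part of tubule RNA in these ratios was not tested.

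Cells with more cytokine UMIs were not a uniform extreme of the other positive cells. In the young library 859 cells had 0, 162 had 1, 90 had 2 to 4 and 45 had 5 or more UMIs of *Il5* plus *Il13*, at medians of 4985, 5884, 5966 and 7033 UMIs in total. *Areg* stood at 785, 1108, 1519 and 1576 CPM over these classes, higher in each than in the one before. *Calca* stood at 306, 528 and 624 CPM and, in the highest class, at 519 CPM. *Icos* followed the same course, at 412, 560, 769 and 634 CPM, while *Klf2* went the other way, at 369.9, 250.0, 222 and 232 CPM. *Il1rl1*, the IL-33 receptor, did not follow the count, at 390.1, 338, 430 and 347 CPM. In the old library the classes held 254, 26, 19 and 7 cells, so the highest rests on 7 cells, at medians of 5409.5, 5709.5, 6607 and 6938 UMIs. *Calca* there stood at 413, 356, 1107 and 2496 CPM, and *Klf2* at 469.7, 447, 185 and 119.8 CPM. Old *Areg* did not follow the count, at 1448, 2403, 1789 and 1258 CPM.

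**Figure D3:**
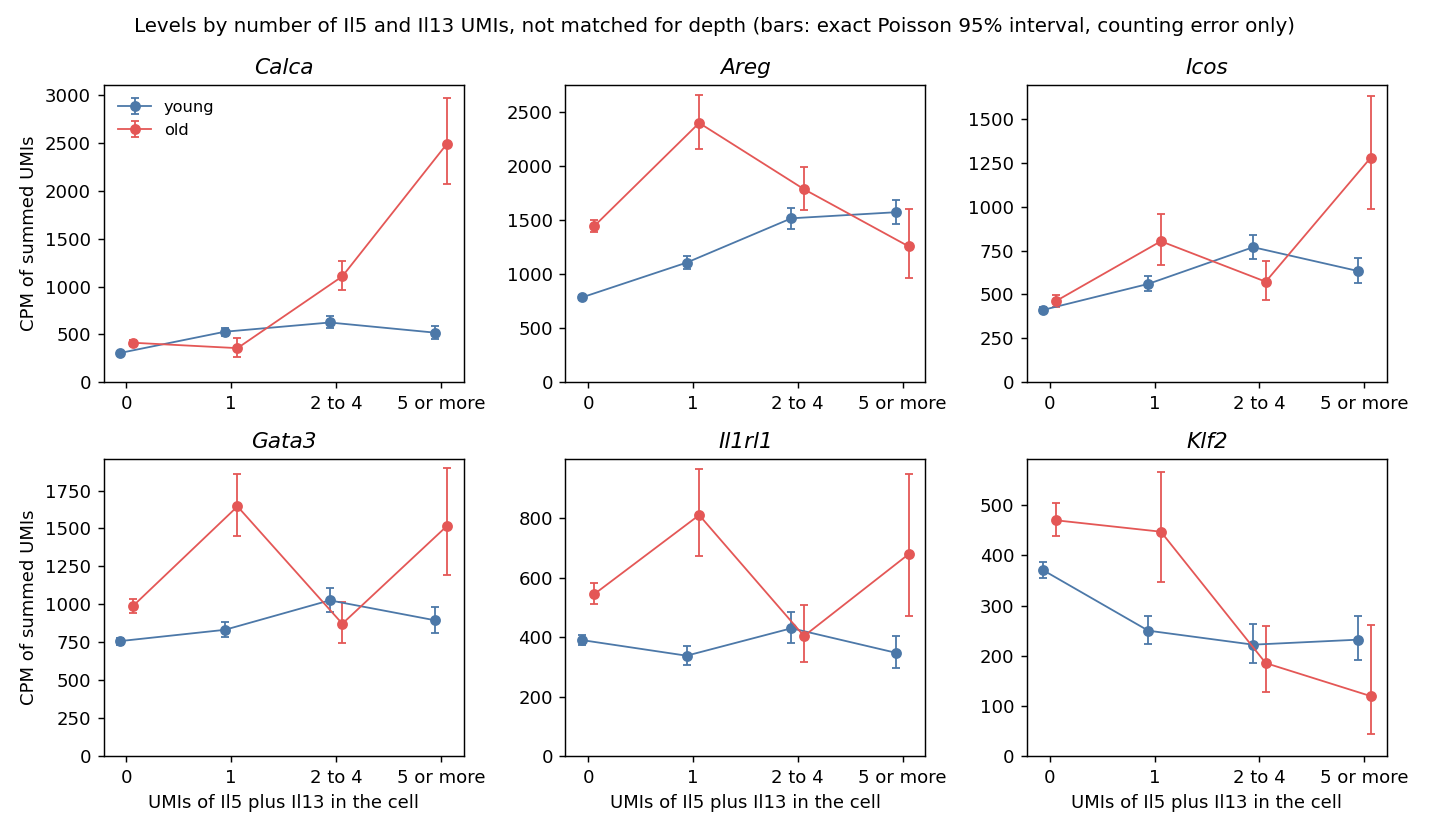
CPM of summed UMIs (vertical axis, from 0) for 6 genes in gated cells grouped by their UMIs of *Il5* plus *Il13* (horizontal axis), young (blue) and old (red); points are sums over the cells of a class and bars exact 95% Poisson intervals. *Areg* climbs from 785 to 1576 CPM in young cells, and *Calca* reaches 2496 CPM in the 7 highest old cells.

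Levels of some genes differed between cells with *Il5* alone, *Il13* alone or both. *Calca* stood at 617, 428 and 679 CPM in the young classes in that order, and at 1239, 747 and 1151 CPM in the old ones, higher with *Il5* than with *Il13* alone at both ages. *Areg* stood at 1292, 1074 and 1924 CPM in young cells, highest with both, and at 2213, 2230 and 883 CPM in old ones, where the last class is 6 cells. *Il4* stood at 6.03, 22.1 and 9.67 CPM in young cells, where it was highest with *Il13* alone. In old cells *Il4* had 1, 7 and 0 UMIs in these classes, too few to tell.

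Between ages, the genes that ranked highest in old positive cells included several of MHC class I presentation and the interferon response. Of 4107 genes compared between old and young positive cells, 59 were higher (1.44%) and 131 lower (3.19%) by 2-fold or more, with a median ratio of -0.06. The excess of lower genes depended on filter and cells, with 26 higher and 30 lower at 200 UMIs or more, and 61 and 63 for cells with at least 2 cytokine UMIs. Between old and young negative cells 110 of 7371 were higher (1.49%) and 296 lower (4.02%). *H2-K1*, an MHC class I heavy chain, stood at 4420 CPM (4213 to 4634) in old and 1319 CPM (1273 to 1366) in young positive cells, a log2 ratio of 1.74 (1.66 to 1.83). The class I genes *H2-T23* and *Tap1*, the transporter of their peptides, had ratios of 2.12 and 2.13, *Irf1*, an interferon-induced factor, 1.88, and *AW112010*, an interferon-responsive transcript, stood at 603 and 151 CPM. *H2-K1*, *H2-T23*, *Tap1*, *Irf1* and *AW112010* were also higher in old negative cells, by 1.64, 1.97, 2.41, 1.30 and 1.60, so cells without cytokine UMIs showed the difference as well. In Y-linked-only positive cells *H2-K1* was at 1.67 and *Irf1* at 1.94, and in *Xist*-only cells at 1.79 and 1.76. Of 14 interferon-stimulated genes, 3 passed in positive cells and 3 were called higher with old age, with sums of 1209 CPM in old and 236 CPM in young cells. In negative cells 9 passed and 8 were called. Within a library 4 of the list passed in young and 3 in old cells and 0 were called. It summed to 236 CPM in young positive and 330.4 CPM in negative cells, with a median of -0.39, and to 1209 and 1106 CPM in old ones, with a median of 0.51.

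*Cd74* stood at 776 CPM in old and 80.0 CPM in young positive cells, a ratio of 3.28 (3.01 to 3.55), and its ratio in negative cells was 1.02. In positive cells the ratio was 4.44 without the cells that Scrublet marked and 5.37 without other-lineage cells. Of the 6 class II genes *Cd74* alone passed here. They summed to 1202 and 128 CPM in positive cells, and old tubule cells also held more *Cd74*, 2383 CPM against 21.2 CPM in young ones. The part of tubule RNA in the *Cd74* difference was not tested. *H2-K1* likewise stood at 556 CPM in old and 24.2 CPM in young tubule cells. *Gdf15*, a stress-induced cytokine gene, stood at 142 and 23.3 CPM in old and young positive cells, but 1 old cell held 70.9% of its UMIs and the ratio was 0.31 without the cells that Scrublet marked.

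The cell cycle list summed lower in old positive cells. Its 16 genes, taken without a filter, summed to 379 CPM in old and 990.2 CPM in young positive cells (-1.39, -1.64 to -1.14), and to 628 and 617 CPM in negative cells (0.03, -0.07 to 0.13). Whether positive and negative cells differ in this was not tested. With fewer old cells, genes reached the filter of 100 UMIs mainly by young counts, which favours genes that are high in young cells. So the 7 of 10 passing genes called lower, and their median of -2.09, are not read as a result, and the genes named below were ranked under the same filter. *Mki67*, a marker of cycling cells, had 0 UMIs in old and 156 in young positive cells, 66.1 CPM, which puts it at least 3.09 log2 units lower by the limit of 3 counts (7.74 CPM). *Top2a*, the DNA topoisomerase of dividing cells, had 3 and 166 UMIs, a ratio of -3.18 (-5.48 to -1.61), against 0.26 in negative cells. *Stmn1*, a microtubule regulator, stood at 28.4 and 245 CPM (-3.11, -4.12 to -2.26), against -0.62 in negative cells. *Lmnb1*, a nuclear lamina gene, and *Sox4* had ratios of -3.07 (-5.36 to -1.49) and -4.68 (-9.99 to -2.18) from 3 against 153 and 1 against 156 UMIs, and *Dctpp1*, a nucleotide pool enzyme, -3.07. *Spp2* and *Hspa1b* had 1 old UMI each, against 171 and 103 young ones, with ratios of -4.81 (-10.12 to -2.31) and -4.08 (-9.40 to -1.57).

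Levels of several secreted factors inside the positive cells also differed with age. *Il5* differed by 0.03 (-0.47 to 0.50) and *Il13* by 0.38 (0.08 to 0.66), as description, since they chose the cells. *Calca* was higher in old cells on both sides, by 0.84 (0.67 to 1.01) in positive and 0.43 (0.30 to 0.56) in negative cells. *Areg* was higher by 0.58 (0.46 to 0.69) and 0.88 (0.81 to 0.95). *Klrg1* was higher by the same amount on both sides, 0.98 and 0.98. *Il2* had ratios of -2.77 (-4.66 to -1.39) in positive and -1.75 in negative cells. Its old positive UMIs were too few to tell, and it reached the filter by young counts, so these ratios are not read as a result. Of the type 2 and growth factor cytokines 11 passed. *Vegfa* was called higher, and *Il2* lower under that limit, and 1 old cell held 57.5% of the old positive *Vegfa* UMIs.

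*Il5* (ENSMUSG00000036117) and *Il13* (ENSMUSG00000020383) lie near each other, at chr11:53720794-53725106 and chr11:53631324-53634702. Of 13 genes neighbouring them, 7 passed in young cells with 0 called and a median of 0.05, and 4 in old cells with 0 called and a median of 0.32. The promoters of both genes and of *Calca*, the secreted factor higher in both libraries, are shown since GATA3 binds GATA letters. They are the RefSeq windows of 300 bases on GRCm38.p6, chr11:53720544-53720843 on the + strand, chr11:53634653-53634952 on the - strand and chr7:114636308-114636607 on the - strand. Capitals mark the letters AGATAA, its variant AGATAG, then TGATAA, as well as TGATAG, on either strand.
Il5: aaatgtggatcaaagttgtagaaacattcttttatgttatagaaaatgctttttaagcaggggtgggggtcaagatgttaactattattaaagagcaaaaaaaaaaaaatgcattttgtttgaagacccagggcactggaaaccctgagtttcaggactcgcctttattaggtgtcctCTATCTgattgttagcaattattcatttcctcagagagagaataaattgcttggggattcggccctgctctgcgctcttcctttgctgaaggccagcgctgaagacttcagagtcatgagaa
Il13: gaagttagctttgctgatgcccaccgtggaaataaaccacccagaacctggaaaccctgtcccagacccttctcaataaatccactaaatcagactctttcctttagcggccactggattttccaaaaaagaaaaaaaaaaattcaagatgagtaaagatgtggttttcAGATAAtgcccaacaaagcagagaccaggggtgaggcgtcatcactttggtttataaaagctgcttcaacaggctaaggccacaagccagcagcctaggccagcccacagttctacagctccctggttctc
Calca: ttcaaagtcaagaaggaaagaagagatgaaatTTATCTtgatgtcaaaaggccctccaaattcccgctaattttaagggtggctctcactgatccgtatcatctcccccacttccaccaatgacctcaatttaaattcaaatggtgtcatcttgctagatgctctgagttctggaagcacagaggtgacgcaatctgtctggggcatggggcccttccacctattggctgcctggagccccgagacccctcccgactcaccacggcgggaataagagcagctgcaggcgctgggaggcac
Each window held 1 such match, and 29.8% of the 32851 RefSeq promoters of this length held at least 1. The AP-1 letters TGAGTCA, found in 5.20% of promoters, and the CRE letters TGACGTCA, found in 1.79%, were in 0 of the 3 windows. The NFAT letters GGAAAA, found in 23.4%, were in the *Il13* window. A match describes letters and not a bound site.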

How the data were processed

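UMI counts per gene and cell barcode, as deposited by the authors, were read for the young and the old library; the authors made these counts from 10x 3′ v3.1 libraries with Cell Ranger 3 on mm10. Members and lists were chosen with earlier results of these data known. The young library held 15076 barcodes and 156787812 UMIs, the old 12622 and 126334256. Doublets were called with Scrublet in Scanpy 1.11.5. Positive cells were paired 1 to 1 with negative cells within 0.25 log2 units of UMI total, and UMIs were summed per side. Intervals at 95% are exact Poisson (CPM), Clopper-Pearson (shares) and binomial (ratios), from SciPy 1.17.1 in Python 3.11.15, and cells were thinned with seed 7. Tubule cells had at least 5 UMIs of at least 3 of 4 tubule markers and no *Ptprc* UMI. B cells had UMIs of at least 2 of 4 B cell markers and none of the gate or excluded genes. Named genes were, without genes of the rule, the 12 highest and 12 lowest in young positive cells by the interval bound nearest 0, and 8 at each end for age, of which 1 is not reported here; others come from 28 lists, 12 of them cell markers. No p-value was computed. The code was tested on simulated data.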

Additional observations from a re-analysis of the deposited data

Results flagged for a closer look

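Intervals of positive over negative cells lay on opposite sides of 0 in the young and the old library for 71 genes, and the difference between the ages was not tested. Of these, 4 belong to the gene lists. *Gpx3*, a glutathione peroxidase of the proximal tubule, was at -0.60 (-0.66 to -0.55) in young and 0.74 (0.59 to 0.90) in old cells. *Slc34a1*, the tubule's phosphate transporter, was at -0.38 (-0.47 to -0.30) and 0.42 (0.13 to 0.72). *Junb*, an early gene, was at 0.05 (0.01 to 0.09) and -0.12 (-0.20 to -0.03), and *Pkm*, a glycolytic enzyme gene, at 0.27 (0.11 to 0.43) and -0.49 (-0.93 to -0.06). The directions depended on the cells taken. Without the cells that Scrublet marked, the old ratios of *Gpx3*, *Slc34a1* and *Pkm* were -0.02, 0.10 and -0.06. The young *Junb* ratio turned to -0.07 against all negative cells.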

How the results depend on the processing

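Alternatives changed the cytokine UMIs required, gate genes, doublets, depth, pairing, filter, scaling and sex-linked subsets; 2, the removal of gated cells with other-lineage UMIs and 2 negatives per positive, were chosen after seeing the data. The cause was not tested in any case below. Under alternatives that change cells, pairing or scaling, 2441 of 2768 young gene values kept their sign, and 2177 lay within the interval as reported; in old cells 1032 of 1327 did, and between ages 143 of 156. Only 79 young and 10 old pairs were *Xist*-only, where 131 of 195 young signs were kept. The young share was 13.6% with at least 2 UMIs, 28.9% with at least 3 gate genes, 32.3% in *Xist*-only cells, and 14.7% and 7.20% thinned to 2000 and 1000 UMIs; the old share was 9.29% with at least 2 UMIs, and 8.14% and 6.31% thinned. Genes past 2-fold numbered 78 in young cells, and 29 in *Xist*-only cells, 47 against all negatives, 9 thinned against all negatives, and 154 and 35 with at least 50 and 200 UMIs. In old cells they numbered 28, and 8 without doublets, 10 in *Xist*-only cells, 17 without other-lineage cells, 102 against all negatives, 13 thinned against all negatives, 51 with 2 negatives, 92 and 13 with at least 50 and 200 UMIs, and 18 by the mean of cells' CPM. Between ages they numbered 190, and 124 with at least 2 UMIs, 126 in Y-linked-only and 114 in *Xist*-only cells, and 469 and 56 with at least 50 and 200 UMIs. The genes compared differed too, so these counts are not shares. In *Xist*-only cells 1535 genes were compared in the young library against 5923 in all pairs. The old library had 162 against 1126, and the comparison of ages 844 against 4107. Among genes called at 2-fold, signs turned in young *Xist*-only cells for *Ccl5* (1.20), *Il2rb* (0.39), *Mcm4* (-0.10), *H2-Aa* (0.07), *H2-Ab1* (1.20), *Cd74* (1.38), *H2-DMa* (1.98), *Inmt* (-0.51), *S100g* (-1.44) and *Ptgs2* (-0.38). Of these only *Cd74* passed the filter in that subset. With at least 3 gate genes *Il2rb* (0.27) and *Inmt* (-0.27) turned, without other-lineage cells *Il2rb* (1.15) and *H2-DMa* (0.79). Of these only *Inmt* passed the filter. *Inmt* and *Acsm3* turned without doublets (-0.32, -1.31), in Y-linked-only cells (-1.62, -1.38), thinned against all negatives (-0.45, -0.45) and with 2 negatives (-0.09, -0.05). Thinned, *Acsm3* was under the filter. In old cells *Ccl4* (0.25) and *Ccl5* (0.50) turned in Y-linked-only cells, *Ccl5* with at least 3 gate genes (0.81) and without other-lineage cells (0.57), and *Odc1* (-0.00), *Kap* (-0.61) and *Cndp2* (-1.21) without doublets. Of these old values only that of *Kap* passed the filter.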

Other observations

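Outside the gate, T cells with *Il5* or *Il13* UMIs numbered 13 of 659 in the young library (1.97%) and 8 of 4309 in the old one (0.186%), at medians of 5099 and 5114 UMIs. Of the cells with a cytokine UMI, 135 young and 7 old ones held a UMI of the basophil and mast cell genes *Mcpt8* or *Cpa3*, 92 and 22 a UMI of *Cd3d*, *Cd3e*, *Cd3g* or *Trac*, and 0 of *Foxp3*.

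With 1 library of pooled mice per age, age cannot be told apart from differences between libraries. Old positive cells numbered 52, and 1126 genes were compared there, against 5923 in young cells, and single cells held large parts of some sums. A cell without a UMI is not shown to lack the gene.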
